A study of Mus musculus with 6 samples.

Results

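The Serpin family, the serine protease inhibitors and their non-inhibitory relatives, was followed in mouse liver with and without exposure to DEHP. Its members were taken by name, as the protein-coding entries of the deposited gene count table whose gene symbol begins with Serpin. This gave 49 genes of 41096 annotated entries, spread over clades a to i, the lettered branches of related sequence. A filter on low counts passed 22 of the 49 genes, against 12468 of all entries, and those 22 were tested.

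DEHP, di(2-ethylhexyl) phthalate, is a plasticizer that leaches from polyvinyl chloride. Polyadenylated RNA of liver was sequenced in 3 libraries labelled DEHP, whose columns carry the word High, and in 3 libraries labelled control. The labels state no dose, duration, vehicle, age, sex or strain. Nothing in them ties each library to its own animal, and p-values therefore measure the spread between these libraries, which may be technical in part.

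A typical serpin presents an exposed reactive-centre loop that a protease cuts as if it were a substrate. The cut loop then inserts into the body of the serpin and traps the protease, so each molecule acts once. The liver secretes most serpins of blood plasma, which restrain clotting, fibrinolysis, complement and inflammatory proteases, while clade b serpins mostly stay inside cells. Some members have lost inhibition and carry hormones or help collagen fold.

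The family's counts were dominated by a few plasma serpins. Levels are given as CPM, which are counts scaled by the TMM-adjusted library total so that libraries of different depth compare. The members together made up 1.72%, 2.17% and 1.91% of annotated counts in DEHP livers, against 1.58%, 1.89% and 2.05% in control livers, so the groups overlapped. Serpina3k, a plasma inhibitor also called contrapsin, held 57.2%, 65.8% and 62.0% of the family's counts in DEHP livers and 51.0%, 53.4% and 59.9% in control livers. Divided by the gene length in the table, its mean level over all 6 libraries was 5397 CPM per kilobase. Serping1, Serpinc1, Serpinf1 and Serpinf2 followed at 439, 371, 365 and 355 CPM per kilobase. Serpina12 was far down this order at 4.64 CPM per kilobase, next to Serpinh1 at 4.32, and Serpinb8 was lower still at 0.268. Outside these shares and this order are 6 entries described as Serpina1, the name for alpha-1-antitrypsin, that carry no Serpin symbol. They include an antisense entry and loci without a gene name, so they need not be 6 gene copies. Together they averaged 4863 CPM with DEHP and 5315 CPM in control.

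**Figure D1:**
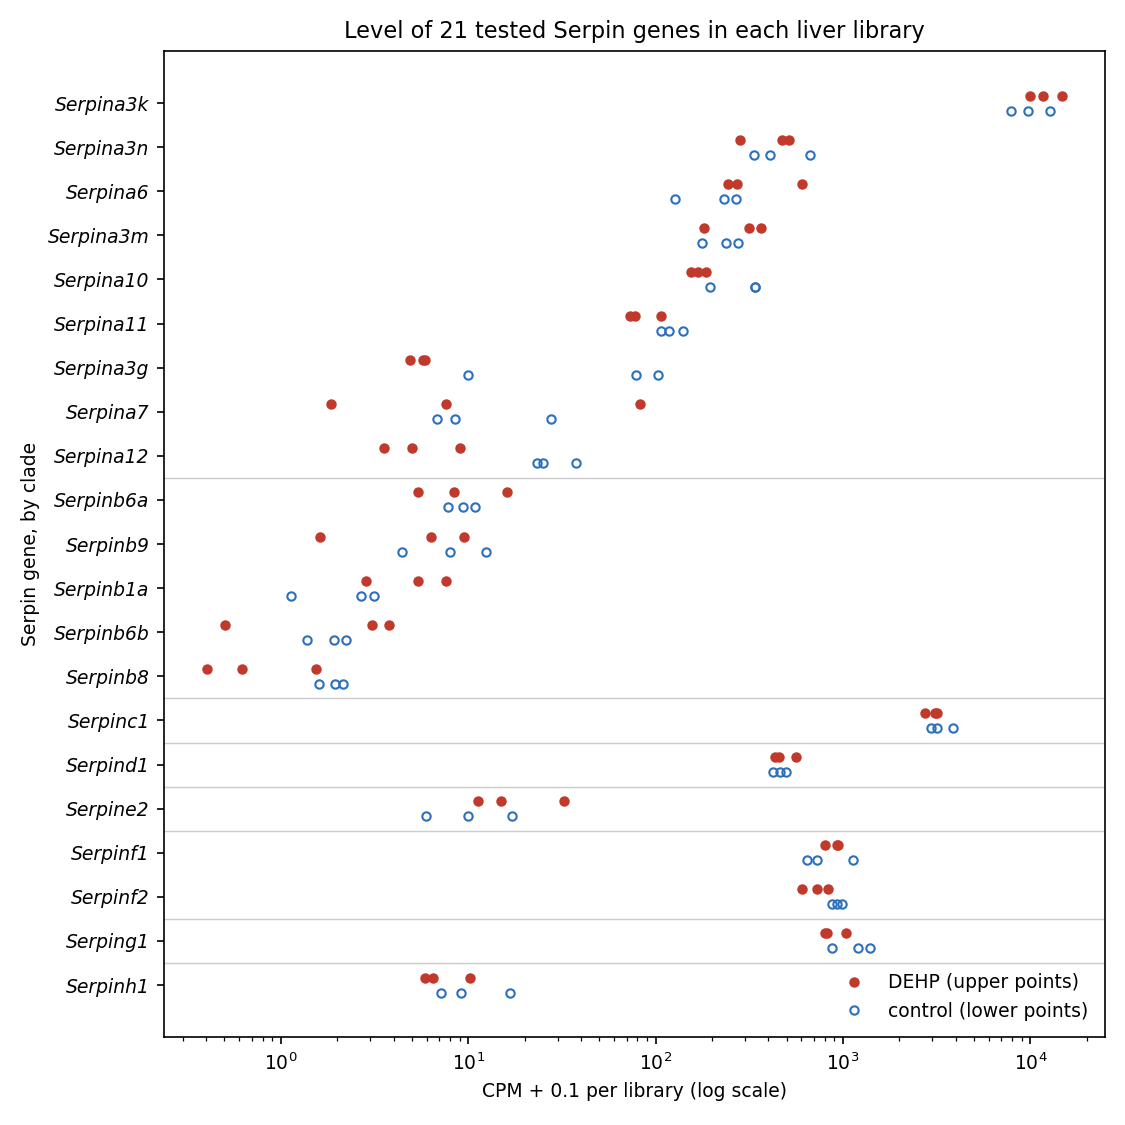
Level of 21 of the 22 tested Serpin genes in every library, as CPM with 0.1 added on a log axis, with genes ordered by clade. Filled points are the 3 DEHP livers and open points the 3 control livers, and the 3 points of a gene overlap between groups except for Serpina12, Serpina10, Serpina3g, Serpinb8 and Serpinf2.

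The sequences below belong to the genes on which the results turn. The first pair are promoter windows from RefSeq on build GRCm38.p6, running from 250 bases before to 50 bases after the gene start. Serpina12 was the only member called, and its window lies at chr12:104044394-104044693 on the minus strand. Serpina3g had the lowest fold change in the family, and its window lies at chr12:104235897-104236196 on the plus strand.
Serpina12 promoter: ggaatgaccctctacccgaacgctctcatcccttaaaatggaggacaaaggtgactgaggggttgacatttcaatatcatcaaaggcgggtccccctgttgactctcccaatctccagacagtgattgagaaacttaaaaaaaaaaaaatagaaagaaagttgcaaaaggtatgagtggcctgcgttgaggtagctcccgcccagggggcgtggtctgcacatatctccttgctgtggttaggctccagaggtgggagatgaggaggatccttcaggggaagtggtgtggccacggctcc
Serpina3g promoter: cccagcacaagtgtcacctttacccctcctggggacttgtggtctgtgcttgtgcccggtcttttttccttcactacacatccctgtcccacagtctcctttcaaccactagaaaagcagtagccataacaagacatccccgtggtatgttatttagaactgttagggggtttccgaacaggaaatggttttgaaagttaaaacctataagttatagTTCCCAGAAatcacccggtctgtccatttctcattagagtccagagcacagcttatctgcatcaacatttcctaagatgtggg
Capitals in the Serpina3g promoter mark TTCCCAGAA, a match to the STAT palindrome TTCNNNGAA that begins 33 bases before the start. The STAT palindrome was 1 of 4 motifs searched on both strands, with the interferon element (GAAA and GAAA with any 2 bases between), AGGTCA (nuclear receptor half-site) and GTTAAT (HNF1 half-site), and overlapping matches were allowed. None of these letters occurs in the Serpina12 window. Of 32851 mouse promoters of the same length, 8.30% hold the STAT palindrome, 3.44% the interferon element, 16.3% the nuclear receptor half-site and 7.10% the HNF1 half-site. Among 48 promoters of 40 Serpin genes matched by symbol, these motifs occurred in 8, 3, 14 and 6. A match describes letters only.

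The second set shows how the most abundant copies differ where they meet a protease. For 3 neighbouring Serpina3 genes, 75 bases of the coding sequence are printed, 25 codons from the hinge of the reactive-centre loop onward, read from GENCODE M21 transcripts on GRCm38. Capitals mark bases that differ from Serpina3k.
Serpina3k: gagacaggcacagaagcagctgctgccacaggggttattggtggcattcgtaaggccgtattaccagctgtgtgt
Serpina3m: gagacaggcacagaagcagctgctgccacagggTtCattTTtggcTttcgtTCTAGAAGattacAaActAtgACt
Serpina3n: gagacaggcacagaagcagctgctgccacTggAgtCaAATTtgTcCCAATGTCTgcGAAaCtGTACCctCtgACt
The first 33 bases of the Serpina3m stretch and the first 29 of the Serpina3n stretch are the same as in Serpina3k. Over the whole stretch 18 bases differ in Serpina3m and 29 in Serpina3n.

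DEHP livers had less Serpina12 RNA, and no other member of the family passed the adjusted threshold. Serpina12 encodes vaspin, a secreted serpin first described in the visceral fat of obese rats, which inhibits the kallikrein KLK7. The table places this protein-coding gene at chr12:109096519-109112179 on the minus strand in its own C57BL/6NJ strain coordinates. It had 34, 102 and 58 counts in the 3 DEHP livers and 526, 316 and 263 in the control livers, which is 3.44, 8.90 and 4.93 CPM with DEHP against 37.3, 24.97 and 23.3 CPM in control. Every DEHP liver was below every control liver, and the highest DEHP value stayed under the lowest control value. The means were 5.76 ± 2.82 CPM with DEHP and 28.5 ± 7.63 CPM in control (SD, n = 3 each). The log2 fold change, DEHP over control, was -2.30 ± 0.33 (SE), with an adjusted p of 0.0193 by edgeR's quasi-likelihood test. Of all genes tested, 9 passed this threshold (0.0722%), of which 2 were lower (0.016%) and 7 higher (0.0561%).

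The fall in Serpina12 kept its direction under all 14 alternatives run, but the call was lost under 6 of them. Its groups did not overlap, so leaving out libraries could not have turned the direction. Leaving out control replicate 1, control replicate 2 or DEHP replicate 3 gave adjusted p of 0.119, 0.0750 and 0.225, and limma-voom gave 0.0927. None of the 50-base stretches of the longest Serpina12 transcript occurs in the longest protein-coding transcript of another gene with a Serpin symbol. Related entries without that symbol were not searched. KLK7's mouse gene, Klk7, had 0 counts in all 6 libraries.

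In bulk liver, fewer cells of a type and less RNA per cell cannot be told apart. The labelled tissue matched its markers, since 6 hepatocyte markers summed to 91991 to 124221 CPM with DEHP and 107378 to 149629 CPM in control. Vaspin is best known from fat, so adipocyte markers are given beside it. The 5 adipocyte markers summed to 0.810, 0 and 20.5 CPM in the DEHP livers, against 1.20, 1.34 and 0.354 CPM in control. Lep was at 0 in every library, and Adipoq was at 0 in all but DEHP replicate 3. Their part in the Serpina12 value was not tested. The 4 keratinocyte markers, of which 3 have an entry, summed to 2.53 to 4.71 CPM with DEHP and 3.16 to 3.54 CPM in control.

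**Figure D2:**
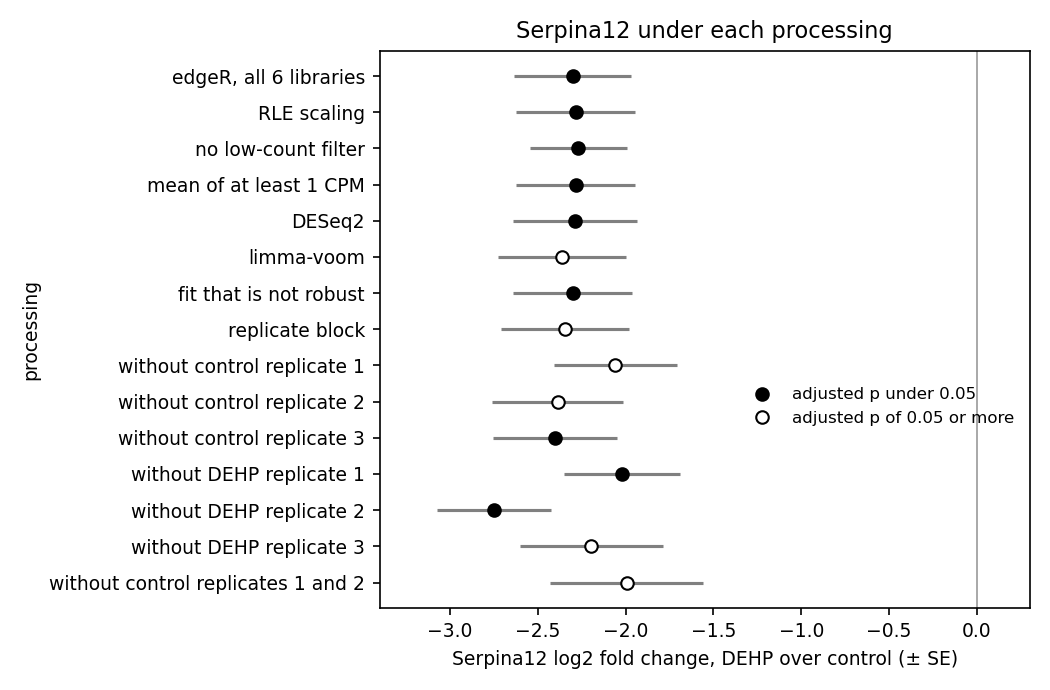
Serpina12 log2 fold change, DEHP over control, with its standard error, for the fit of all 6 libraries and for each of 14 alternatives. Filled points have an adjusted p under 0.05 and open points do not, and all points lie between -2.75 and -1.99.

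Over the whole family, 10 of the 22 tested members had a positive and 12 a negative log2 fold change, while 52.9% of all tested genes were below 0. Their median was -0.15, beside -0.03 over all genes, and the range ran from -3.56 to 1.22. At an unadjusted p under 0.05, 4 members were lower and 1 was higher, where 6.97% of all genes were lower and 6.11% higher (13.1% in either direction). The 4 lower ones, Serpina12, Serpina10, Serpina3g and Serpina11, are all of clade a and all from the chromosome 12 cluster, and the higher one was Serpinb1a. In 5 members all DEHP livers were below all control livers, a pattern found in 8.57% of all genes, and no member showed the opposite pattern, found in 9.17% (17.7% for either). Besides Serpina12, Serpina10 and Serpina3g these were Serpinb8 and Serpinf2. The clade medians were -0.16 for the 9 tested genes of clade a, 0.10 for the 5 of clade b and -0.13 for the pair of clade f.

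**Figure D3:**
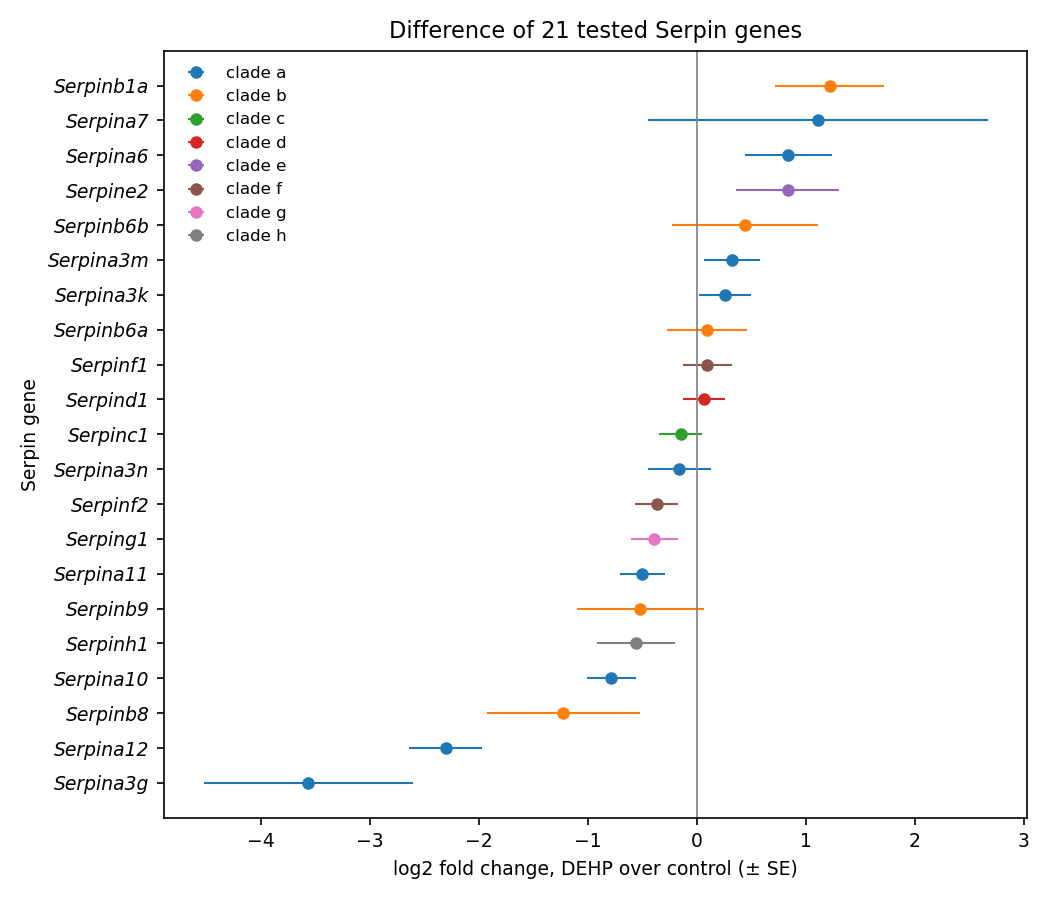
Log2 fold change, DEHP over control, with its standard error, for 21 of the 22 tested Serpin genes, coloured by clade and sorted by value. Serpina3g at -3.56 and Serpina12 at -2.30 lie at the low end, and most other members lie within 1 log2 unit of 0.

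The 6 serpins of clotting, fibrinolysis and complement described next did not pass the adjusted threshold with all 6 libraries. Serpina10, the protein Z-dependent protease inhibitor, blocks activated clotting factor X with the help of protein Z. It had 184.9, 168.2 and 153.5 CPM with DEHP against 337.2, 338.8 and 195.2 CPM in control. All DEHP livers were below all control livers, and control replicate 3 was much nearer to them than the other control livers. The log2 fold change was -0.78 ± 0.23 (SE, adjusted p = 0.200). Without control replicate 3 it was -0.98 with an adjusted p of 0.0128, where 3.1% of all genes passed, and without any low-count filter -0.75 with 0.0268, where 2.41% passed. With control replicates 1 and 2 both left out it was -0.20 (adjusted p = 0.998), so the size rests on those libraries.

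Antithrombin, encoded by Serpinc1, is the main plasma inhibitor of thrombin and factor Xa. It had 3191, 3104 and 2734 CPM with DEHP and 2946, 3177 and 3873 CPM in control. The groups overlapped, and the log2 fold change was -0.15 ± 0.20 (SE, adjusted p = 0.799). Heparin cofactor II, the product of Serpind1, is another thrombin inhibitor. Serpind1 had 453.2, 560.0 and 431.1 CPM with DEHP and 424.7, 496.9 and 458.4 CPM in control, again overlapping, at 0.07 ± 0.19 (SE, adjusted p = 0.919).

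Serpinf2 encodes alpha-2-antiplasmin, which stops plasmin from dissolving clots. Its levels were 604.5, 727.5 and 830.5 CPM with DEHP and 985.2, 874.2 and 930.2 CPM in control. The highest DEHP liver was just below the lowest control liver, and the log2 fold change of -0.37 ± 0.19 did not pass (SE, adjusted p = 0.436). Serping1, the C1 inhibitor of complement and the contact system, had 804.3, 1031 and 816.9 CPM with DEHP and 1204, 1396 and 871.0 CPM in control. The groups overlapped through control replicate 3, and the log2 fold change was -0.39 ± 0.22 (SE, adjusted p = 0.462).

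Serpine2 of clade e encodes protease nexin 1, an inhibitor of thrombin and of plasminogen activators. It had 11.2, 32.4 and 14.9 CPM with DEHP and 9.92, 5.85 and 17.1 CPM in control. The groups overlapped, with DEHP replicate 2 highest, at 0.84 ± 0.47 (SE, adjusted p = 0.495).

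The Serpina3 copies held most of the family's counts, and none of them passed the adjusted threshold with all 6 libraries. Serpina3k had 9979, 14746 and 11609 CPM with DEHP and 7898, 9716 and 12665 CPM in control, with overlapping groups and a log2 fold change of 0.26 ± 0.24 (SE, adjusted p = 0.682). Serpina3n, which inhibits cathepsin G and granzyme B and is an acute-phase protein of the mouse, had 280.5, 512.2 and 470.1 CPM with DEHP and 409.0, 666.6 and 333.9 CPM in control. It overlapped too, at -0.16 ± 0.29 (SE, adjusted p = 0.857). Serpina3m ranged from 181.6 to 365.0 CPM with DEHP and from 177.0 to 273.6 CPM in control, at 0.32 ± 0.26 (SE, adjusted p = 0.637).

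Serpina3g had the lowest fold change among these copies. Its product, also called Spi2A, acts inside cells against lysosomal cathepsins and is induced in activated leukocytes. Serpina3g had 5.67, 4.80 and 5.78 CPM with DEHP, against 103.3, 78.9 and 9.92 CPM in control. The DEHP livers were low and close together, control replicates 1 and 2 were high, and control replicate 3 was above the DEHP livers by much less. The log2 fold change was -3.56 ± 0.96, the lowest of the tested members (SE, adjusted p = 0.294). DESeq2, by which 2.09% of all genes passed, gave an adjusted p of 0.00684. Leaving out control replicate 3, where 3.1% of all genes passed, gave -4.05 with 3.98e-08. Serpina3g passed under no other alternative, with an adjusted p of 0.303 by limma-voom and 0.386 to 0.692 with any other library left out. With control replicates 1 and 2 left out the log2 fold change was -0.86.

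Interferon-stimulated genes were high in the same control livers. Of 17 such genes with an entry, 16 were tested and none passed the adjusted threshold. All 16 had a negative log2 fold change, beside 52.9% of all genes. At an unadjusted p under 0.05, 13 were lower, beside 6.97% of all genes. Their median was -3.21, beside -0.03 over all genes. Their summed level was 399.1, 343.7 and 403.2 CPM with DEHP and 4195, 3309 and 395.9 CPM in control, so control replicate 3 lay within the DEHP range. Stat2, a transcription factor of interferon signalling, was at -1.54 ± 0.32 (SE, adjusted p = 0.142). Irf1, Mx2 and Mx1 were at -2.05 ± 0.51, -2.54 ± 0.50 and -3.58 ± 0.90 (SE), with adjusted p of 0.223, 0.143 and 0.233. The 8 macrophage markers summed to 189, 273 and 216 CPM with DEHP and 564, 477 and 165 CPM in control. All 8 had a negative log2 fold change, beside 52.9% of all genes, with a median of -0.67. Their part in the Serpina3g and Serpina10 values was not tested.

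**Figure D4:**
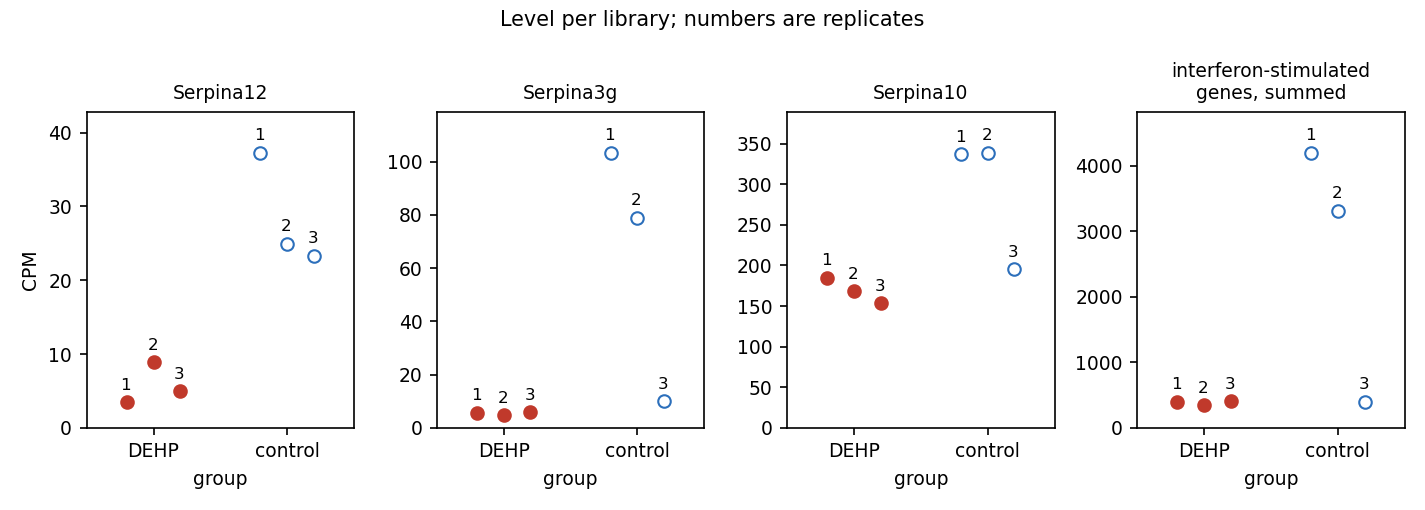
CPM in each liver for Serpina12, Serpina3g, Serpina10 and the summed interferon-stimulated genes, with the DEHP livers at the left of each panel and the control livers at the right. Control replicate 3 lies near the DEHP livers for Serpina3g and the interferon-stimulated genes. For Serpina12 it is at 23.3 CPM, beside 37.3 and 24.97 CPM in control replicates 1 and 2.

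For Serpina12, control replicate 3 was the lowest control at 23.3 CPM, close to control replicate 2 at 24.97 CPM. Control replicate 1 was highest at 37.3 CPM. The summed interferon-stimulated genes had the same order of control livers. Whether Serpina12 follows the interferon-stimulated genes was not tested. With control replicates 1 and 2 left out, the Serpina12 log2 fold change was -1.99. That fit has a lone control liver, which is assumed to vary like the DEHP livers.

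Reads of the Serpina3 copies can be shared by the authors' counting. Of the 50-base stretches in each gene's longest GENCODE M21 transcript, 19.1% in Serpina3m, 13.7% in Serpina3k, 11.3% in Serpina3g and 6.75% in Serpina3n also occur in another Serpin transcript. The entries of Serpina3k and Serpina3m begin at the same base and overlap, so their split is uncertain. The 8 Serpina3 entries together had 10448, 15629 and 12399 CPM with DEHP and 8588, 10736 and 13246 CPM in control. Without Serpina3k the sum was 468.8, 882.5 and 789.7 CPM with DEHP and 689.6, 1020 and 580.8 CPM in control, so both sums overlapped between the groups.

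Among the members of the chromosome 12 cluster, 16 in all over 936 kb, 8 were tested. Serpina11, which lies 49.4 kb from Serpina12, had 107.1, 77.6 and 73.0 CPM with DEHP and 139.4, 117.7 and 106.8 CPM in control. The highest DEHP liver just passed the lowest control liver, and the log2 fold change was -0.50 ± 0.21 (SE, adjusted p = 0.344). Serpina10 and Serpina6 lie 516 and 483.5 kb from Serpina12 on the same side. Their log2 fold changes were -0.78 and 0.84, and neither passed (adjusted p = 0.200 and 0.419). The Serpina6 groups overlapped, and leaving out DEHP replicate 1 gave 0.33.

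A pair of tested entries in the cluster carries no Serpin symbol and stays outside the family as defined here. An unprocessed pseudogene described as SERPINA4 lies 53.2 kb from Serpina12 on the other side from Serpina11. It had 15.4, 11.5 and 15.0 CPM with DEHP and 22.8, 29.1 and 23.2 CPM in control, without overlap, at -0.84 ± 0.22 (SE, adjusted p = 0.172). The entry described as Serpina1e, a copy of alpha-1-antitrypsin, had 1202, 2577 and 1551 CPM with DEHP and 2916, 2621 and 2563 CPM in control. DEHP replicate 2 reached the control range there, and the log2 fold change was -0.60 ± 0.26 (SE, adjusted p = 0.353). The mean of an unnamed locus described as Serpina1b went the other way, at 2975 CPM with DEHP and 2502 CPM in control, with overlap. All 6 entries described as Serpina1 together averaged 4863 CPM with DEHP and 5315 CPM in control. How reads were split between these entries was not tested.

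**Figure D5:**
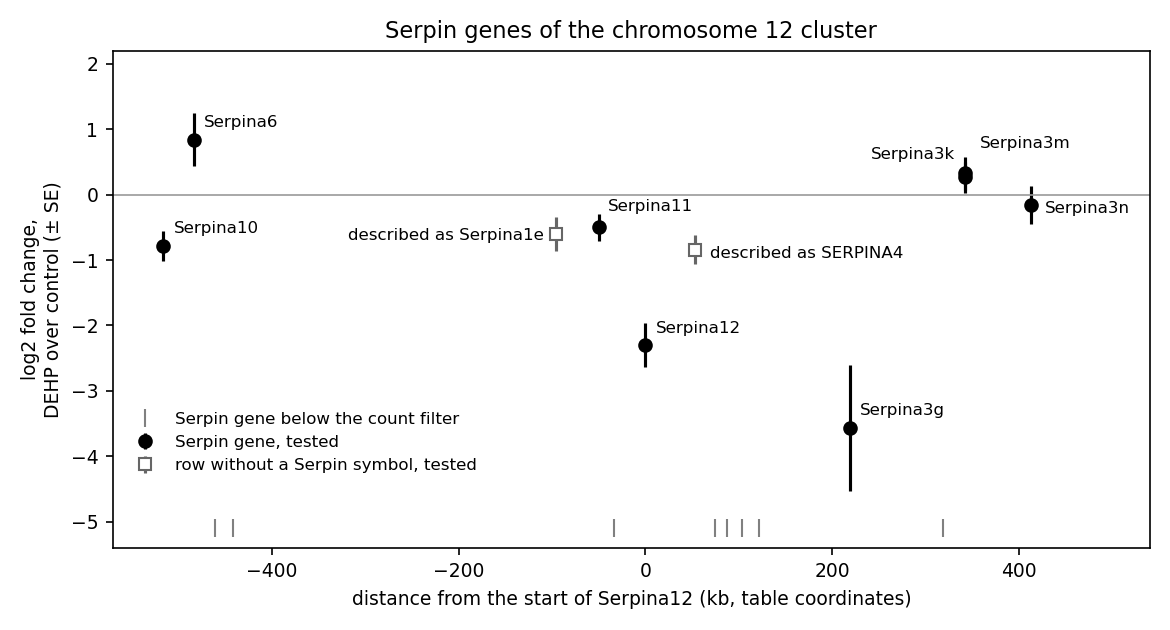
Log2 fold change, DEHP over control, with its standard error, against the distance from the start of Serpina12 in kb, for the tested entries of the chromosome 12 cluster. Ticks at the bottom mark cluster members below the count filter. Serpina12 at -2.30 and Serpina3g at -3.56 lie well below their neighbours, which range from -0.84 to 0.84.

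The hormone carriers of the family have lost protease inhibition. Serpina6 encodes corticosteroid-binding globulin, which carries glucocorticoids in plasma. It had 606.9, 244.7 and 272.1 CPM with DEHP and 126.8, 269.9 and 230.7 CPM in control. DEHP replicate 1 was highest and control replicate 1 lowest, while the other libraries lay together. The log2 fold change of 0.84 ± 0.40 did not pass with the count filter (SE, adjusted p = 0.419), whereas without it the adjusted p was 0.00801, where 2.41% of all genes passed. Leaving out DEHP replicate 1 gave 0.33 (adjusted p = 0.634). Serpina7, thyroxine-binding globulin, had 82.8, 1.74 and 7.48 CPM with DEHP and 8.36, 6.72 and 27.5 CPM in control. DEHP livers thus held both its highest and its lowest value, and its log2 fold change was 1.11 ± 1.56 (SE, adjusted p = 0.821).

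A fixed list of other hormone carriers and partners had 8 entries, of which 7 were tested. None passed the adjusted threshold, and the list median was 0.20 beside -0.03 for all genes. At an unadjusted p under 0.05, 1 was higher, beside 6.11% of all genes. That gene was Dio1, the deiodinase that activates thyroxine in liver, at 0.54 ± 0.24 (SE, adjusted p = 0.371). It had 207.0, 224.9 and 123.5 CPM with DEHP and 100.3, 135.7 and 147.2 CPM in control, with overlap.

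Other non-inhibitory serpins gave no call. Serpinf1 encodes pigment epithelium-derived factor, a secreted factor that restrains blood vessel growth. It had 936.0, 803.7 and 932.3 CPM with DEHP and 640.8, 727.9 and 1129 CPM in control, at 0.10 ± 0.23 (SE, adjusted p = 0.898). Serpinh1 encodes HSP47, the collagen chaperone of the endoplasmic reticulum. It had 5.77, 6.37 and 10.1 CPM with DEHP and 7.09, 9.09 and 16.7 CPM in control, with overlap, at -0.55 ± 0.36 (SE, adjusted p = 0.543). Stellate cells are the collagen makers of liver. Their 6 markers summed to 114, 181 and 156 CPM with DEHP and 197, 195 and 245 CPM in control. All 6 had a negative log2 fold change, beside 52.9% of all genes. Their part in the Serpinh1 value was not tested.

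The intracellular serpins of clade b were scarce. Of 21 genes, 5 passed the filter, and the clade summed to 10.7, 29.5 and 32.6 CPM with DEHP and 23.3, 25.2 and 21.3 CPM in control. Serpinb1a, an inhibitor of neutrophil elastase and cathepsin G, had the highest log2 fold change in the family, at 1.22 ± 0.50 (SE, adjusted p = 0.339). It had 2.73, 7.502 and 5.27 CPM with DEHP and 3.05, 1.03 and 2.57 CPM in control. DEHP replicate 1 lay inside the control range, and the others lay above it. The 7 neutrophil markers summed to 3.398 to 4.46 CPM with DEHP and 3.28 to 9.64 CPM in control, with Mpo and Ly6g at 0 in all libraries.

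Serpinb9 encodes an inhibitor of granzyme B that protects cells from cytotoxic lymphocytes. It had 1.52, 9.42 and 6.20 CPM with DEHP and 7.87, 12.4 and 4.34 CPM in control, overlapping, at -0.52 ± 0.58 (SE, adjusted p = 0.754). Its promoter holds a match to the interferon element, TTTCACTTTC read in the gene's direction, that begins 46 bases before the start. Serpinb6a is a cytosolic inhibitor with the interferon element 84 bases before a start and 2 matches to the STAT palindrome in its promoter windows. It had 5.27, 8.29 and 16.1 CPM with DEHP and 9.28, 7.74 and 10.7 CPM in control. Its groups overlapped as well, at 0.10 ± 0.37 (SE, adjusted p = 0.940). Markers of T and NK cells, which carry granzymes, summed to 1.82 to 6.03 CPM with DEHP and 3.19 to 4.90 CPM in control.

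Serpinb8 ranged from 0.304 to 1.44 CPM with DEHP and from 1.51 to 2.06 CPM in control. It did not overlap, yet its lowest value amounts to 3 counts, which correspond to 0.213 to 0.304 CPM depending on the library, and the log2 fold change was -1.22 ± 0.70 (SE, adjusted p = 0.480). Serpinb6b ranged from 0.405 to 3.66 CPM with DEHP and from 1.28 to 2.13 CPM in control, at 0.44 ± 0.67 (SE, adjusted p = 0.823). The 5 Serpinb6 copies together had 5.67, 11.95 and 19.2 CPM with DEHP and 10.6, 9.56 and 12.8 CPM in control. The 3 Serpinb9 copies had 1.62, 9.42 and 6.46 CPM with DEHP and 7.87, 12.4 and 4.34 CPM in control, and the 3 Serpinb1 copies 2.73, 7.59 and 5.27 CPM with DEHP and 3.05, 1.03 and 2.57 CPM in control.

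The other 27 members were below the filter, 8 of clade a, 16 of clade b, 2 of clade i and 1 of clade e. Of these, 16 had no count in any library, among them 12 of clade b and Serpini2, pancpin. The remaining 11 had at most 21 counts in a library. That count was for Serpini1, neuroserpin, a nervous system inhibitor of tissue plasminogen activator, which had 0, 21 and 10 counts with DEHP and 0, 0 and 4 in control. Serpina9 had 10, 3 and 1 counts with DEHP and 2, 0 and 0 in control. Differences at this depth were not tested.

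Proteases and cofactors on which serpins act were counted from a fixed list. Of 38 with an entry 32 were tested, and none passed the adjusted threshold. At an unadjusted p under 0.05, 6 were lower and 0 higher, beside 6.97% and 6.11% of all genes. The list median was -0.23 beside -0.03 over all genes. Vtn, vitronectin, an adhesive plasma protein that binds serpins, had 4432, 3503 and 3159 CPM with DEHP and 6275, 5936 and 5726 CPM in control. Its groups did not overlap, at -0.69 ± 0.21 (SE, adjusted p = 0.208). Masp1, a lectin-pathway protease that the C1 inhibitor blocks, was at -0.77 ± 0.25, Gpc1, a heparan sulfate proteoglycan, at -1.12 ± 0.40, and Hgfac, the activator of hepatocyte growth factor, at -0.47 ± 0.19 (SE), with adjusted p of 0.251, 0.287 and 0.341.

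Inhibitors of other families were also counted. Of 20 with an entry 18 were tested, and none passed the adjusted threshold. At an unadjusted p under 0.05, 2 were lower and 1 higher, beside 6.97% and 6.11% of all genes (13.1% in either direction). The list median was -0.10, beside -0.03 over all genes. Itih4, an inter-alpha-trypsin inhibitor heavy chain and acute-phase protein, had 806.6, 765.4 and 691.6 CPM with DEHP and 1810, 1898 and 937.4 CPM in control, at -1.04 ± 0.25 (SE, adjusted p = 0.151). As for Serpina10, control replicate 3 was the control nearest to the DEHP livers. Tfpi2, a Kunitz-type inhibitor, had 17.3, 18.0 and 17.2 CPM with DEHP and 5.81, 9.72 and 11.2 CPM in control, all DEHP livers higher, at 0.98 ± 0.27 (SE, adjusted p = 0.191). Itih1 was at -0.40 ± 0.18 (SE, adjusted p = 0.375).

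Acute-phase genes are those that inflammation induces in liver, and Serpina3n is one of them in the mouse. All 17 with an entry were tested and none passed the adjusted threshold. At an unadjusted p under 0.05, 6 were lower and 0 higher, beside 6.97% and 6.11% of all genes. Of the 17, 13 had a negative log2 fold change, beside 52.9% of all genes, and the median was -0.42. Their summed level was 25849, 26818 and 21414 CPM with DEHP and 51492, 47209 and 27613 CPM in control. Control replicate 3 was again nearest to the DEHP livers. Hpx, hemopexin, was at -1.16 ± 0.30, Hp, haptoglobin, at -0.93 ± 0.35, Apcs, serum amyloid P, at -1.01 ± 0.34, and Fga, a fibrinogen chain, at -0.54 ± 0.23 (SE), with adjusted p of 0.178, 0.320, 0.281 and 0.345. Among these 4, the groups did not overlap for Hpx alone. Serpina3n, with its log2 fold change of -0.16, was above the list's median.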

How the data were processed

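Per the labels, polyadenylated RNA from mouse liver was sequenced as paired ends with a strand-marking kit, 3 DEHP and 3 control libraries. The authors deposited 1 table of raw whole-number counts with a row per gene. The submitters' processing notes name GRCm38.p6, while gene identifiers and coordinates are those of the C57BL/6NJ strain annotation. Neither aligner, counter nor strand setting is stated (not given in the sources used here). Groups were taken from sample titles, because the design text describes another assay. Annotated counts were tested in edgeR 4.0.16 (R 4.3.3) with filterByExpr (minimum count 10), TMM scaling and the robust two-sided quasi-likelihood test without covariates, with Benjamini-Hochberg adjustment over 12468 genes at a threshold of 0.05. Library totals were 10410098 to 12405044 counts with DEHP and 12001969 to 14229803 in control. Loci without a gene name, 1284 of 42380, were left out. They held 3.42% to 4.28% of counts with DEHP and 2.73% to 2.91% in control. Fold changes are log2 of DEHP over control, with SE from the F statistic, and means are ± SD.

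Members and lists were chosen with earlier results of these data known. Named genes were Serpina12, members past an unadjusted p of 0.05, the 2 most abundant per clade and at most 4 per partner list. Serpina6, Serpina7, Serpina3m, Serpinb6b, Serpinb8 and entries without a Serpin symbol were added after their values were seen. The result for 1 tested member is not reported here. Alternatives were DESeq2 1.42.0, limma-voom (limma 3.58.1), RLE scaling, a non-robust fit, no filter, a minimum mean of 1 CPM, a replicate block and libraries left out.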

Additional observations from a re-analysis of the deposited data

How the results depend on the processing

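Depth and 3 libraries a group limit these results, and members near 3 counts a library cannot show small changes. The 9 genes past the threshold became 496 without a filter, 261 with DESeq2 and 2 with limma-voom. With 1 library left out they became 5 to 400, the 400 without control replicate 3. The 1 Serpin member called became 3 without a filter, 2 with DESeq2, 0 with limma-voom and 0 to 3 with 1 library left out. Members at an unadjusted p under 0.05, 5 in all, became 8 without a filter and 3 to 8 with 1 library left out. Serpina12 was at -2.36 with limma-voom, at -1.99 without control replicates 1 and 2, and at -2.75 to -2.02 with 1 library left out (adjusted p from 6.30e-04 to 0.225). It passed with RLE scaling (adjusted p = 0.0247), DESeq2 (1.10e-07), no filter (5.13e-13), a minimum mean of 1 CPM (0.0279) and the fit that is not robust (0.0333).

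Replicate numbers showed no sign of pairing the libraries. Same-numbered deviations correlated at -0.01, 0.09 and -0.04, and 2 of 6 libraries correlated best with their own number. These values cannot exclude a pairing, on which the labels are silent. With the replicate block 6 genes passed, 0 of them Serpin members, and Serpina12 was at -2.34 (adjusted p = 0.144). Under the block the interferon median -2.64, Serpina7 -0.25 and Serpinb6a -0.0272.

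The family median was 0.29 without a filter, which adds members of few counts, and -0.29 to -0.00180 with 1 library left out. Without a filter the medians of clades a and b were 0.32 and 1.25. Without control replicates 1 and 2 clade f was at -0.34, serpin partners at -0.30, acute-phase genes at -0.0147 and interferon genes at 0.32. Interferon genes were at -2.47 with limma-voom. With 1 library left out the medians ran from -0.66 to 0.18 in clade a, -0.44 to 0.42 in clade b and -0.21 to 0.0287 in clade f. Likewise, serpin partners ran from -0.28 to -0.15, other inhibitors from -0.27 to -0.0354, acute-phase genes from -0.53 to -0.38 and interferon genes from -3.80 to -2.75.

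Signs turned in members whose groups overlapped. Without control replicates 1 and 2, Serpina3k was at -0.0502, Serping1 at 0.0353, Serpinf1 at -0.33, Serpina3n at 0.35, Serpinb6a at -0.10 and Serpinb9 at 0.42. With limma-voom, Serpina7 was at -0.23 and Serpinb6a at -0.00469. With 1 library left out, Serpinf1 ran from -0.0588 to 0.40, Serpind1 from -0.0452 to 0.14, Serpina3n from -0.33 to 0.18, Serpina7 from -1.60 to 2.03, Serpinb6a from -0.44 to 0.42 and Serpinb6b from -0.00815 to 0.96. The cause was not tested for any of these changes.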

Other observations

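Angiotensinogen, encoded by Agt, has the serpin fold without a Serpin symbol and is the precursor of the angiotensin peptides. Agt had 1892, 1325 and 1361 CPM with DEHP and 1243, 1262 and 1626 CPM in control, with overlap, and a log2 fold change of 0.15 ± 0.21 (SE, adjusted p = 0.813). No entry carries the symbols of the alpha-1-antitrypsin copies Serpina1a to Serpina1e. The 6 entries described as Serpina1 together had 3790, 5928 and 4872 CPM with DEHP and 5296, 4870 and 5778 CPM in control, so the groups overlapped. The largest of them, a locus without a gene name that is described as Serpina1b, had 2481, 3263 and 3181 CPM with DEHP and 2300, 2133 and 3073 CPM in control. It was left out of the tests with the other unnamed loci.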
